A study of Mus musculus with 62 samples.

Results

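The transcripts described here are 10 genes that mark the choroid plexus, namely Ttr, Kl, Enpp2, Sostdc1, Folr1, Clic6, Kcne2, Kcnj13, Aqp1 and Otx2, in tissue punches of the mouse striatum. They were picked by name and matched by Entrez identifier, and they were picked because earlier work on these data had shown that they varied from library to library and varied together. All 10 were listed among the 17874 genes of the striatum table and among the 17653 genes of the prefrontal cortex table. In the striatum 10 of 10 passed the filter on low counts, which kept 15118 genes, and in the prefrontal cortex 6 of 10 passed a filter that kept 14838 genes. Their spread and their co-variation in the striatum are therefore given as a description, without a test.

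RNA sequencing counts were available for 62 libraries of female mice of the inbred strain C57BL/6. Oral doses of the MARBLES mixture of polychlorinated biphenyls (PCBs, persistent industrial chemicals) were 0.1, 1 or 6 mg/kg, and control mice had vehicle alone (0 mg/kg). Striatum and prefrontal cortex (PFC) each gave 21 libraries, of which 4 were vehicle, 5 had the lowest dose, 6 the middle dose and 6 the highest dose. Liver gave 20. The labels give no age of the mice and no duration of dosing, and they carry a number on each library that recurs across tissues, used below to name the animal without a statement that libraries of 1 number share a mouse. The labels do not state that libraries of a group come from separate cages or litters, so p-values measure only the spread between these samples.

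The choroid plexus is a fringe of epithelium and vessels that hangs into the brain ventricles and secretes cerebrospinal fluid. Its epithelial cells make carrier proteins for the fluid, move ions and water through channels and transporters at their apical and basal faces, and keep their identity through the homeobox factor OTX2. The striatum borders the lateral ventricle, which holds a choroid plexus.

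Total counts per library ran from 8283032 to 12019651 in the striatum and from 8722232 to 12135200 in the PFC. Levels are CPM, counts scaled to 1000000 per library after adjustment by edgeR's TMM factors, and 3 counts in a striatum library correspond to between 0.25 and 0.362 CPM. The striatum punches carried their tissue's own markers: 18 of 19 striatal projection neuron genes passed the test as higher in the striatum than in the PFC, and of 13 cortical excitatory neuron genes 11 passed as lower and 1 as higher. Of all 14513 genes in that fit 4177 passed as higher and 3935 as lower. Across the striatum libraries the summed level of the striatal projection neuron genes lay between 5809 and 12348 CPM. In these bulk punches more choroid plexus cells and more RNA per cell cannot be told apart.

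RefSeq promoter windows of assembly GRCm38.p6, which run from 250 bases before to 50 bases after a transcript start, were matched for 5 of the 10 genes, namely Kl, Kcne2, Kcnj13, Aqp1 and Otx2, in 9 windows. They are shown because these genes rose and fell together across libraries and because OTX2 is a DNA-binding factor of this epithelium. Each window was searched on both strands for the OTX motif TAATCC, whose reverse is GGATTA. The motif was found in 1 of the 9 windows, that of an Otx2 start at chr14:48665060-48665359 on the minus strand, at -211 from the start, and it is set in capitals below. Of 32851 windows of all genes 7.06% held it. The Kl window lies at chr5:150952357-150952656 on the plus strand, the Kcne2 window at chr16:92292139-92292438 on the plus strand, the Kcnj13 window at chr1:87394680-87394979 on the minus strand and the Aqp1 window at chr6:55336049-55336348 on the plus strand.
Otx2: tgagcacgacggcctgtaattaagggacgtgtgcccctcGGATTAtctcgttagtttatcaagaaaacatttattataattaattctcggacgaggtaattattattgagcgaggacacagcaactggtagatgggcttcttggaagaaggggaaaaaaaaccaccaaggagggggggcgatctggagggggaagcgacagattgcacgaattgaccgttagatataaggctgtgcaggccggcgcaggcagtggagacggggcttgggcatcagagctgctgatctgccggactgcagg
Kl: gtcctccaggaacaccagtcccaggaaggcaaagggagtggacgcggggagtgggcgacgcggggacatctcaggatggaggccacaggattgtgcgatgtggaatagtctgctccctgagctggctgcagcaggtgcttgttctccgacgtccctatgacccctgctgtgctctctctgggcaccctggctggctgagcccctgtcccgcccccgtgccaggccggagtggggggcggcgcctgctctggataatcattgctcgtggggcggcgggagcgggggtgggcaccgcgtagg
Kcne2: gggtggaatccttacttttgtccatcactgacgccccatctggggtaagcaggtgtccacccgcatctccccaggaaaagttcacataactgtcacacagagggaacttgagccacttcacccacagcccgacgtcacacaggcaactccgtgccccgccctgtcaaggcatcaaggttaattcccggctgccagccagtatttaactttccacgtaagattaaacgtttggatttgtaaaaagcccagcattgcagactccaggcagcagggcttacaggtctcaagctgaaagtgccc
Kcnj13: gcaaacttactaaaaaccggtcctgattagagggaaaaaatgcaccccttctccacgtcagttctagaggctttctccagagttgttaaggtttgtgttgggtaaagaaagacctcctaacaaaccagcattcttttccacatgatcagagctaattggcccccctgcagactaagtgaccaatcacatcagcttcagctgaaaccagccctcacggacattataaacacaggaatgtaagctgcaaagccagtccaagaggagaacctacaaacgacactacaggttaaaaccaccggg
Aqp1: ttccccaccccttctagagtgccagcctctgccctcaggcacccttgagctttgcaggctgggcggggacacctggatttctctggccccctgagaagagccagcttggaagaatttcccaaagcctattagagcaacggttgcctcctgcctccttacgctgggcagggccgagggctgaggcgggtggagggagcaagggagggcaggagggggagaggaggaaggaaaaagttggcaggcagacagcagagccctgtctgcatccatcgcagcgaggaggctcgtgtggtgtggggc
A match is a description of the letters and not of binding, and the other 3 Otx2 windows and the second Kcne2 window held no match either.

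Ttr encodes transthyretin, the carrier of thyroid hormone and, with retinol-binding protein, of retinol, which this epithelium secretes into the cerebrospinal fluid. Its gene lies on chromosome 18 and overlaps the long noncoding RNA Gm16090, so reads shared between them are uncertain. In vehicle striatum the Ttr level was 93.3 CPM in animal 3, 607 CPM in animal 4, 23.5 CPM in animal 7 and 3.56 CPM in animal 8. At 0.1 mg/kg it was 2.21 CPM in animal 23, 9.67 CPM in animal 24, 3.05 CPM in animal 25, 1092 CPM in animal 28 and 81.8 CPM in animal 29. At 1 mg/kg the lowest library had 1.66 CPM (animal 50), the median was 56.6 CPM and the highest had 4045 CPM (animal 45), and at 6 mg/kg these were 4.29 CPM (animal 54), 167 CPM and 2377 CPM (animal 52). Each dose group thus held libraries with little Ttr and at least 1 with a great deal, and the 4 groups overlapped. The highest and the lowest striatum library both came from 1 mg/kg and differed 2431-fold, from 39627 counts in animal 45 to 19 counts in animal 50. Ttr made up 0.425% of all counts in animal 45 and 0.000159% in animal 50.

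The 5 libraries with the most Ttr were those of animals 45, 52, 41, 28 and 4, with 607 CPM or more, and the next library had 355 CPM (animal 53). They comprised 1 of 4 vehicle libraries, 1 of 5 at 0.1 mg/kg, 2 of 6 at 1 mg/kg and 1 of 6 at 6 mg/kg. Their total counts were 8283032 to 10147296, beside 8553800 to 12019651 in the other 16 libraries, so the shallowest library is among them and the deepest is not.

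**Figure D1:**
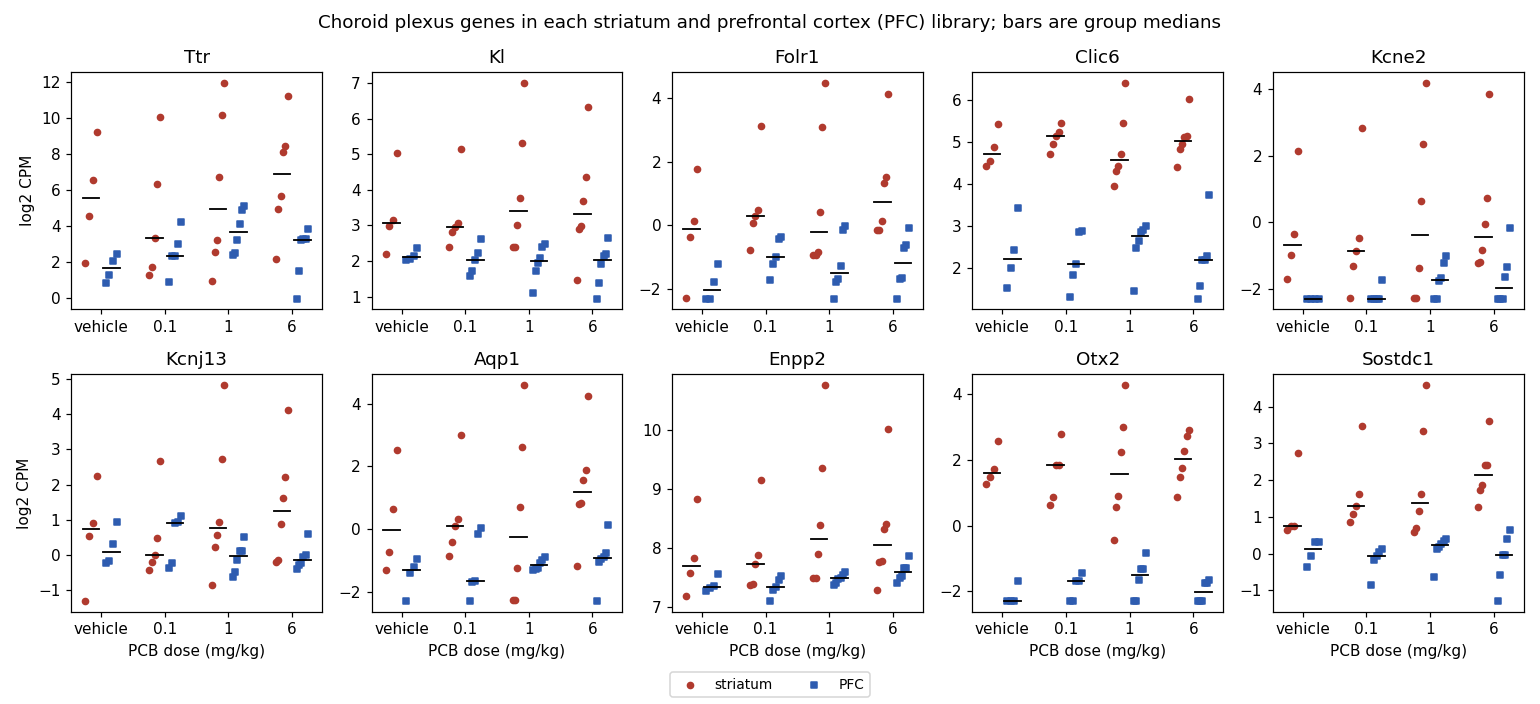
Level of each of the 10 genes as log2 CPM (prior count 2) in every library, by PCB dose in mg/kg; circles are striatum, squares are PFC and bars are group medians. Each striatum dose group holds 1 or 2 libraries well above the rest for most of the genes, and for Clic6 all 21 striatum libraries lie above all 21 PFC libraries.

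Among the other secreted and surface proteins, Kl, Enpp2 and Sostdc1 were high in the same libraries as Ttr. Kl (chr5:150952607-150993817) encodes klotho, a co-receptor for a fibroblast growth factor that also circulates as a shed protein. Its level was 7.76, 32.8, 4.37 and 8.69 CPM in vehicle animals 3, 4, 7 and 8, and 5.003, 7.52, 6.88, 35.0 and 8.13 CPM at 0.1 mg/kg in animals 23, 24, 25, 28 and 29. In the 1 mg/kg group Kl ran from 5.08 CPM through a median of 10.7 CPM to 129 CPM, and at 6 mg/kg from 2.55 CPM through 10.2 CPM to 80.5 CPM. Animal 4 was the one high vehicle library and animal 28 the one high library at 0.1 mg/kg, and the dose groups overlapped.

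Enpp2 (chr15:54838901-54952789) encodes autotaxin, a secreted enzyme that makes lysophosphatidic acid and that oligodendrocytes produce as well. It was never low: vehicle animals 3, 4, 7 and 8 had 227, 456, 190 and 144 CPM. At 0.1 mg/kg animals 23, 24, 25, 28 and 29 had 211, 234, 165, 568 and 167 CPM, at 1 mg/kg the lowest, median and highest libraries had 180, 287 and 1744 CPM, and at 6 mg/kg 155, 269 and 1044 CPM. The high libraries were again those of animals 4, 28, 41, 45 and 52, above a level of 144 CPM or more in every library.

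Sostdc1 (chr12:36314169-36318452) encodes a secreted antagonist of bone morphogenetic protein and Wnt signals. Vehicle animals 3, 7 and 8 had 1.34, 1.49 and 1.48 CPM and animal 4 had 6.45 CPM, and at 0.1 mg/kg animal 28 had 10.9 CPM beside 1.63 to 2.89 CPM in the other 4. Sostdc1 at 1 mg/kg ran from 1.29 CPM through 2.44 CPM to 23.9 CPM and at 6 mg/kg from 2.20 CPM through 4.27 CPM to 12.04 CPM. A single library stood high in each group at vehicle and 0.1 mg/kg, as for Kl.

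The transport genes were near the limit of detection in the low libraries and clear in the high ones. Folr1 (chr7:101858331-101870788), the folate receptor by which this epithelium carries folate into the cerebrospinal fluid, was at 0.575, 3.18, 0.893 and 0 CPM in vehicle animals 3, 4, 7 and 8. At 0.1 mg/kg it was at 8.59 CPM in animal 28 and between 0.385 and 1.18 CPM in the other 4, at 1 mg/kg it reached 22.3 CPM over a median of 0.748 CPM, and at 6 mg/kg 17.4 CPM over a median of 1.59 CPM. Of the 21 libraries 11 held fewer than 10 Folr1 counts and 1 held none, while animal 45 held 218. Folr1 overlaps the noncoding gene Gm35597 at its edge.

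Kcne2 (chr16:92292389-92298133) encodes an accessory subunit of potassium channels that sits at the apical face of the epithelium. It had 0.575, 4.24, 0.0992 and 0.296 CPM in vehicle animals 3, 4, 7 and 8, and 6.96 CPM in animal 28 against 0 to 0.513 CPM in the other 4 animals at 0.1 mg/kg. The highest libraries had 18.2 CPM at 1 mg/kg, over a median of 0.756 CPM, and 14.2 CPM at 6 mg/kg, over a median of 0.558 CPM. Kcne2 was at 0 counts in 3 libraries and under 10 counts in 14, so its order among the low libraries was not detectable at this depth.

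Kcnj13 (chr1:87384577-87394729) encodes the inward rectifier potassium channel Kir7.1 of the same apical membrane. It had 1.25, 4.53, 0.198 and 1.68 CPM in vehicle animals 3, 4, 7 and 8, and 6.09 CPM in animal 28 against 0.537 to 1.198 CPM in the other 4 animals at 0.1 mg/kg. Kcnj13 at 1 mg/kg reached 28.1 CPM over a median of 1.503 CPM, and at 6 mg/kg 17.01 CPM over a median of 2.24 CPM. The gene lies within Gigyf2 on the opposite strand, and the use of strand in counting is not given in the sources used here. Gigyf2 varied only from 41.9 to 74.5 CPM, and its part in the Kcnj13 counts was not tested.

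Aqp1 (chr6:55336299-55348555) encodes the water channel of the apical membrane. Its level was 1.34, 5.59, 0.397 and 0.198 CPM in vehicle animals 3, 4, 7 and 8, and 7.83 CPM in animal 28 against 0.339 to 1.03 CPM in the other 4 animals at 0.1 mg/kg. Aqp1 at 1 mg/kg ran from 0 through a median of 0.823 CPM to 23.9 CPM and at 6 mg/kg from 0.232 CPM through 2.14 CPM to 18.8 CPM. Both libraries without an Aqp1 count came from 1 mg/kg, the group that also held the highest library.

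Clic6 (chr16:92498147-92541241), of the family of intracellular chloride channel proteins, varied least of the 10 genes. Vehicle animals 3, 4, 7 and 8 had 21.3, 42.8, 29.3 and 23.02 CPM, and animals 23, 24, 25, 28 and 29 at 0.1 mg/kg had 25.8, 30.4, 37.2, 43.1 and 34.6 CPM. Clic6 at 1 mg/kg ran from 15.1 CPM through 23.4 CPM to 84.3 CPM and at 6 mg/kg from 20.9 CPM through 32.3 CPM to 64.4 CPM. The order of libraries resembled that of Ttr, over a 5.60-fold range rather than a 2431-fold one.

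Otx2 (chr14:48656781-48667644), the homeobox factor, had 2.20, 5.78, 3.08 and 2.57 CPM in vehicle animals 3, 4, 7 and 8, and 1.35, 1.61, 3.39, 6.74 and 3.42 CPM in animals 23, 24, 25, 28 and 29 at 0.1 mg/kg. Otx2 at 1 mg/kg ran from 0.536 CPM through 3.08 CPM to 19.3 CPM and at 6 mg/kg from 1.62 CPM through 3.91 CPM to 7.40 CPM. It was the one gene of the 10 for which animal 41, with 7.77 CPM, ranked second in place of animal 52.

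Across all 10 genes animal 45 was the highest library, and animal 52 was second for 9. Animals 45, 52, 41 and 28 were among the top 5 libraries for 10 of 10 genes and animal 4 for 9 of 10. Per kilobase of the longest GENCODE vM21 transcript, animal 45 held 3410 CPM of Ttr and 564 CPM of Enpp2. The remaining 8 genes lay between 7.44 CPM per kilobase (Otx2) and 22.4 CPM per kilobase (Clic6), with Kl at 22.2 and Kcnj13 at 22.1 on the same scale. The 10 genes together took 0.644% of the counts of animal 45.

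By the SD of log2 CPM over the 21 striatum libraries, Ttr ranked 1 of 15118 genes with an SD of 3.51, where the median gene had 0.26. Kcne2 (1.99), Aqp1 (1.97), Folr1 (1.77), Kcnj13 (1.59) and Kl (1.44) ranked 8, 9, 13, 19 and 27. Sostdc1 (1.15), Otx2 (1.06) and Enpp2 (0.96) ranked 65, 83 and 135, and Clic6 (0.58) ranked 1229. Variation within dose groups made up between 89.9% (Sostdc1) and 98.0% (Kcne2) of each gene's sum of squares, and 77.4% for the median gene.

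The 10 genes rose and fell together over the 21 striatum libraries. Over their 45 pairs the Pearson correlation of log2 CPM had a median of 0.892 and ran from 0.767 to 0.954, and Spearman's rho had a median of 0.801 and ran from 0.631 to 0.916. Against the mean z-score of the other 9 genes, r was highest for Aqp1 (0.960) and Kcne2 (0.956) and lowest for Otx2 (0.874) and Clic6 (0.898). Without animals 45 and 52, the 2 libraries farthest from the median, the median r of the pairs was 0.823. Without animals 45, 52, 41, 28 and 4 it was 0.631, over 16 libraries in which several of the genes had few counts. These points share their library and its depth, and the total count of a library had an r of -0.37 with the mean z-score of the 10 genes (rho -0.40, n = 21).

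**Figure D2:**
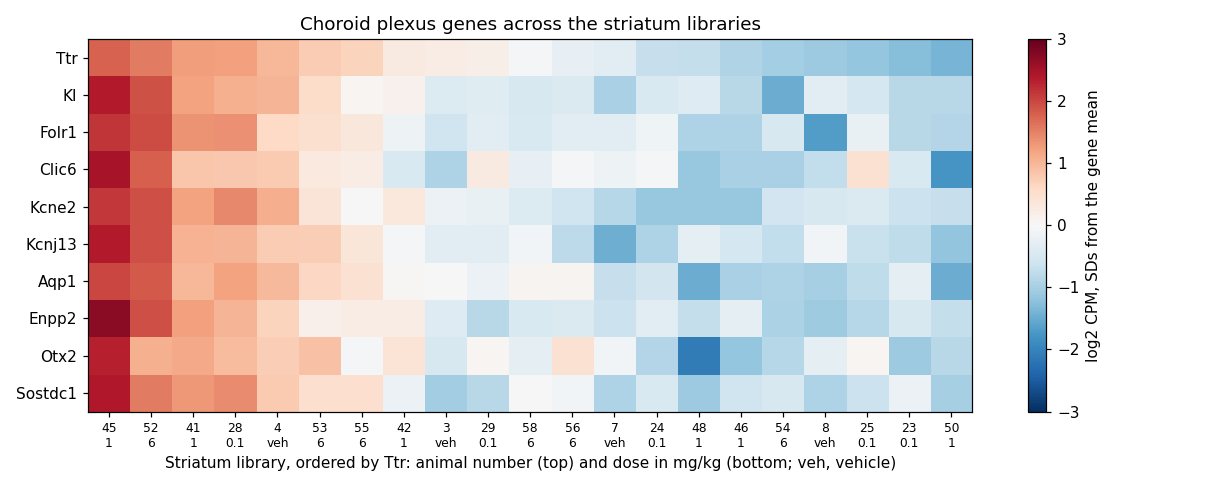
Log2 CPM of each gene in the 21 striatum libraries as SDs from that gene's mean, with libraries ordered by Ttr and labelled by animal number and dose. The 5 columns at the left, animals 45, 52, 41, 28 and 4, are above the mean for all 10 genes and come from all 4 dose groups.

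On the linear scale each gene followed Ttr along a line with its own slope and its own level at no Ttr. Per 100 CPM of Ttr, the fitted level of Enpp2 rose by 37.7 CPM (SE 0.901) from an intercept of 195 CPM, and that of Kl by 3.05 CPM (SE 0.0655) from 6.28 CPM. Clic6 rose by 1.502 CPM (SE 0.124) from 26.4 CPM and Otx2 by 0.375 CPM (SE 0.0345) from 2.49 CPM. Folr1, Kcne2, Kcnj13 and Aqp1 had intercepts between 0.238 and 0.690 CPM. The slopes of those 4 were 0.588, 0.484, 0.662 and 0.619 CPM per 100 CPM of Ttr, and Sostdc1 had 0.529. Without animals 45 and 52 the slopes of Kl, Enpp2 and Clic6 were 2.98, 38.3 and 1.75, and that of Sostdc1 was 0.753. Those of Folr1, Kcne2, Kcnj13, Aqp1 and Otx2 were then 0.676, 0.520, 0.506, 0.597 and 0.475. Otx2 had 0.285 without animal 45 alone, so some slopes moved by more than their standard errors with single libraries. Standard errors treat the libraries as independent and the level of Ttr as free of error.

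**Figure D3:**
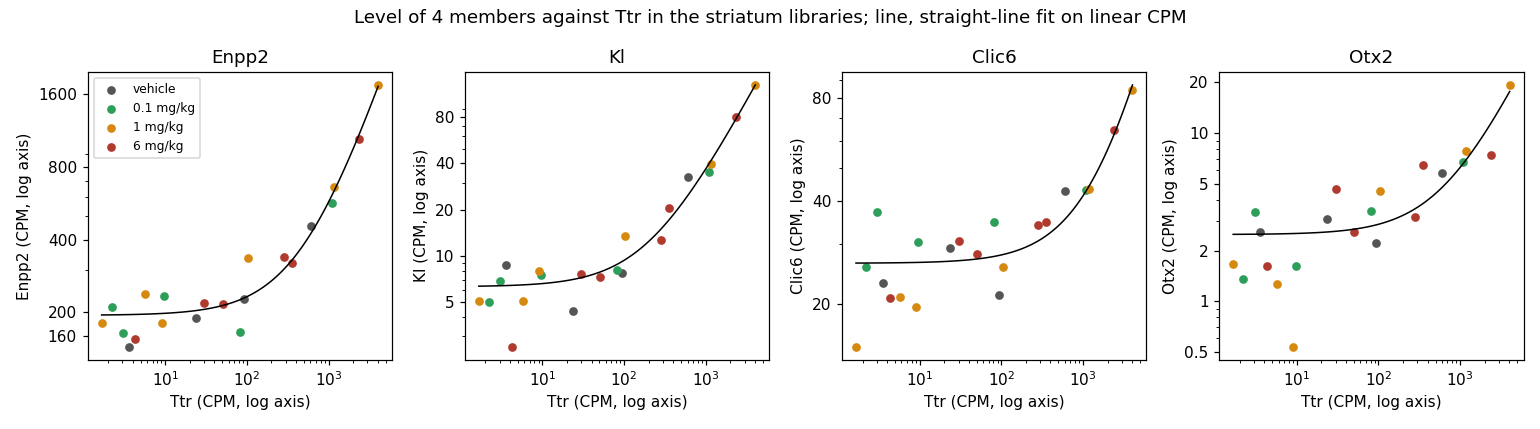
Level of Enpp2, Kl, Clic6 and Otx2 against Ttr in the 21 striatum libraries, both in CPM on log axes, coloured by dose; the line is the straight-line fit on linear CPM. Each curve is flat at its intercept, 195 CPM for Enpp2 and 26.4 CPM for Clic6, and rises toward the libraries highest in Ttr, with Clic6 the last of the 4 to leave its intercept.

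Other genes followed the same libraries. Of the 15108 tested genes other than the 10, 226 (1.5%) had an r of at least 0.7 with their mean z-score, and 27 (0.179%) had an r of -0.7 or below. The 10 most alike were Wfdc2 (r 0.972), Ecrg4 (0.972), Slc4a5 (0.955), Mfrp (0.955), Drc7 (0.947), Tmem72 (0.946), Zfp185 (0.946), Cldn2 (0.941), Wdr86 (0.933) and Epn3 (0.931). Ecrg4 encodes augurin, a secreted peptide precursor, Slc4a5 a sodium bicarbonate cotransporter, Cldn2 a tight junction claudin and Drc7 a part of the dynein regulatory complex of motile cilia. Ecrg4 ran from 0.536 CPM through a median of 2.22 CPM to 46.8 CPM, the last in animal 45, and in the PFC it did not exceed 2.31 CPM. Slc4a5 ran from 0 through 0.424 CPM to 23.6 CPM and Cldn2 from 0 through 0.708 CPM to 16.1 CPM, both highest in animal 45. The most opposite genes were Vamp2 (r -0.83), a synaptic vesicle protein, Sphk1 (-0.81) and Snx7 (-0.79). Vamp2 ran from 723 to 1032 CPM.

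Marker lists were set beside the 10 genes, with none of the 10 in them. Of 54 tested genes of the list of other choroid plexus genes, 34 had an r of at least 0.7, with a median r of 0.777, against 1.5% of all other genes. Among the 12 most abundant of that list Slc4a2 (r 0.873), an anion exchanger, Ace (0.865), angiotensin-converting enzyme, Trpm3 (0.850), a cation channel, and Slc12a2 (0.737), the sodium-potassium-chloride cotransporter NKCC1, reached 0.7. Igf2 (0.685), Igfbp2 (0.671), Cd9 (0.655), Spint2 (0.620), Clu (0.484), Car12 (0.449), Htr2c (0.279) and Slc4a10 (0.00785) did not. Htr2c, a serotonin receptor, and Slc4a10, a bicarbonate transporter, are also made by neurons. Without animals 45, 52, 41, 28 and 4 the median r of the list was 0.421, beside 0.477 for the ependymal genes described next. Co-variation chose the 10 genes and the lists were drawn up with earlier results known, so these counts do not test the label of the 10 genes.

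Some genes of other marker lists moved with the 10 genes as well. Of 25 ependymal genes, which belong to the ciliated lining of the ventricles, 13 had an r of at least 0.7 (median 0.707), and their summed level ran from 90.3 to 283 CPM. Foxj1, the master factor of motile cilia, had an r of 0.765 and a range from 8.25 to 41.6 CPM, and Ccdc153 had an r of 0.784. The other abundant ependymal genes had lower values, with 0.554 for Rarres2, 0.614 for Spag6l and 0.487 for Ccdc39, the last at 0.126 without animals 45 and 52. Of 15 oligodendrocyte genes 6 reached 0.7 (median 0.669), among them Mobp (0.792), Cnp (0.701) and Mal (0.741), while Mbp had 0.669. Their summed level ran from 4950 to 12494 CPM, and without animals 45 and 52 their median r was 0.491. Genes of septal, diencephalic and other neurons were mixed, with a median r of 0.405 over 21 and a range from -0.59 to 0.841. Of these 3 reached 0.7, namely Calb2 (0.703), Slc17a6 (0.711), the vesicular glutamate transporter of the thalamus, and Tcf7l2 (0.841), the last named after its values were seen. Zic1 had 0.585, and Zic2 (0.677), Zic4 (0.584), Prkcd (0.565), Lef1 (0.551) and Crhr2 (0.499) were positive too. Lhx6 (-0.59), Nts (-0.49), Lhx2 (-0.48) and Chat (-0.27) had negative values, as had Slc5a7 (-0.13) and Nkx2-1 (-0.04). All of these but Zic1 were also named after their values were seen. Without animals 45 and 52 Lhx6, Nts, Lhx2 and Chat had -0.15, -0.003, -0.61 and 0.142, so of these 4 only Lhx2 kept a clear negative value. The list's summed level ran from 429 to 1427 CPM, and the neuropeptide genes Oxt and Avp spanned 1.58 to 324 CPM and 1.06 to 247 CPM in striatum punches with r of 0.317 and 0.260, which became 0.633 and 0.579 without animals 45 and 52. The part of these cells in the levels of the 10 genes was not tested. Whether the genes of the ependymal list came from ependymal or from choroid plexus cells was not tested either.

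In the other lists few genes or none reached an r of 0.7. Of 19 striatal projection neuron genes 0 had an r of at least 0.7 (median -0.24), with Ppp1r1b, the phosphoprotein DARPP-32, at -0.20, Penk, proenkephalin, at -0.30, Adcy5 at -0.27 and Pde10a at 0.018. The counts were 0 of 20 for leptomeningeal and stromal fibroblast genes (median -0.18), 0 of 10 for mural genes (-0.16), 0 of 3 for red cell genes (0.08) and 0 of 11 for microglia and macrophage genes (-0.13). They were 0 of 13 for cortical excitatory neuron genes (-0.23), 0 of 14 for subventricular stem and progenitor genes (-0.14, with Dlx5 at -0.72), 1 of 10 for astrocyte genes (Gfap, 0.718) and 1 of 15 for endothelial genes. The endothelial gene, named after its values were seen, was Ocln, a tight junction protein that epithelia also make, with an r of 0.816. Of 4 tested hepatocyte genes 1 did, Trf, the transferrin gene that oligodendrocytes also express (0.753), while Rbp4 (-0.38), Apoh (-0.39) and Apoa2 (-0.09) did not.

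**Figure D4:**
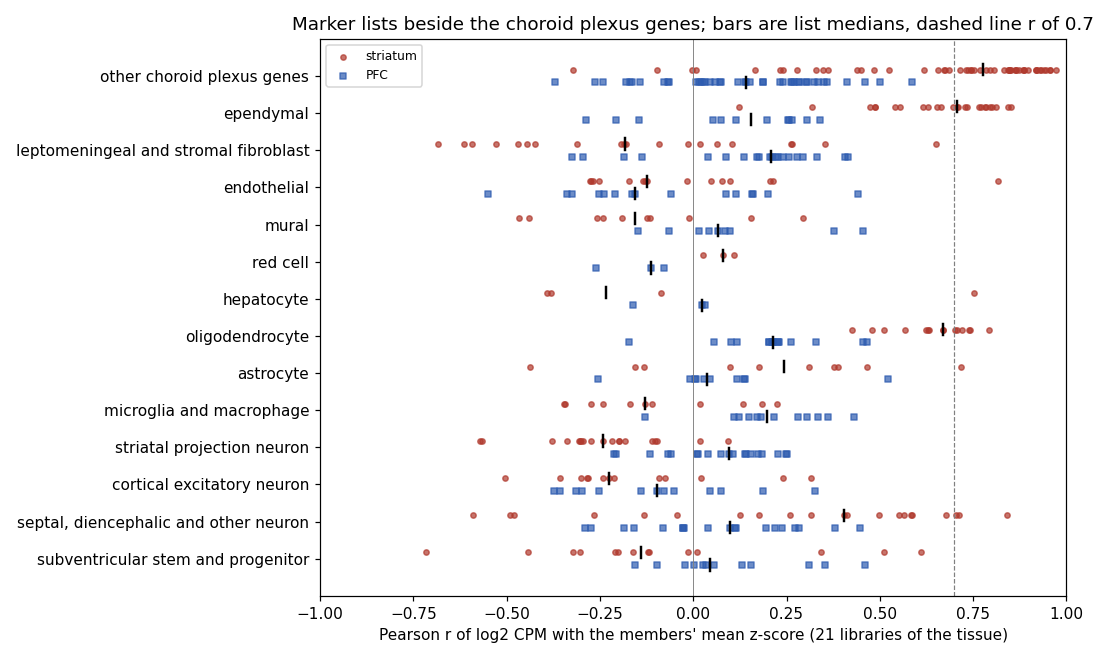
Pearson r of each marker gene's log2 CPM with the mean z-score of the 10 genes over the 21 libraries of a tissue, by marker list; circles are striatum, squares are PFC, bars are list medians and the dashed line is an r of 0.7. In the striatum the other choroid plexus genes have a median of 0.777, the ependymal genes of 0.707 and the oligodendrocyte genes of 0.669, and in the PFC no list has a gene at 0.7.

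The dose comparisons ask whether the PCB mixture changed these transcripts. By edgeR's quasi-likelihood test with Benjamini-Hochberg adjustment, 0 of the 10 genes passed an adjusted p of 0.05 in the striatum at 0.1, 1 or 6 mg/kg, where 0% of all 15118 genes passed at each dose. DESeq2's Wald test passed 1, 6 and 26 genes at these doses, none of them among those of the 10 that it gave an adjusted p. At 6 mg/kg it gave one only to Ttr, Kl, Clic6 and Enpp2. Unadjusted, with edgeR at 0.05, 0 of 10 passed at each dose, beside 2.53%, 7.36% and 15.7% of all genes at 0.1, 1 and 6 mg/kg. Single libraries moved these shares, and they are not read as a trend with dose. The 2377 genes at 6 mg/kg became 1539 without vehicle animal 4, and the 383 at 0.1 mg/kg became 719 without that library and 224 without vehicle animal 8. The 1113 genes at 1 mg/kg became 1769 without vehicle animal 4, 498 without vehicle animal 7, 717 without animal 45 and 2285 without animal 50. Several fitted log2 fold changes of the 10 genes were nonetheless large at 1 and 6 mg/kg, with wide errors. Most at 0.1 mg/kg, and those of Clic6 at every dose, were small. The Ttr value was 1.53 at 6 mg/kg (SE 2.12, adjusted p 0.740 by edgeR) and 2.31 at 1 mg/kg (SE 2.20, adjusted p 0.812 by edgeR). For the lowest dose it was 0.39 (SE 2.11, adjusted p 0.999966 by edgeR).

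At 6 mg/kg the 10 log2 fold changes were all positive, from 0.30 (Clic6) to 1.83 (Folr1, SE 1.40, edgeR adjusted p 0.525), with a median of 1.05 beside 0.01 over all genes. Of all 15118 genes 7816 were positive. The 10 genes were picked for varying together, so their shared sign is not 10 separate results. In the marker lists 44 of 54 other choroid plexus, 24 of 25 ependymal, 14 of 15 oligodendrocyte and 2 of 13 cortical excitatory neuron genes were positive. The 1 mg/kg values of the 10 genes ran from 0.26 (Clic6) to 2.31 (Ttr), with a median of 1.41 beside 0.01, and at 0.1 mg/kg from -0.11 (Kl) to 1.01 (Folr1), with a median of 0.19 beside 0.00 over all genes. The 3 comparisons share the vehicle libraries, and single libraries decided the values. Without animal 52 the Ttr value at 6 mg/kg was -0.32, and without vehicle animal 4 it was 3.69. Without animal 45 the Ttr value at 1 mg/kg was 0.51, and without animal 28 the value at 0.1 mg/kg was -2.89. At this spread a change of Ttr with dose was not detectable.

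**Figure D5:**
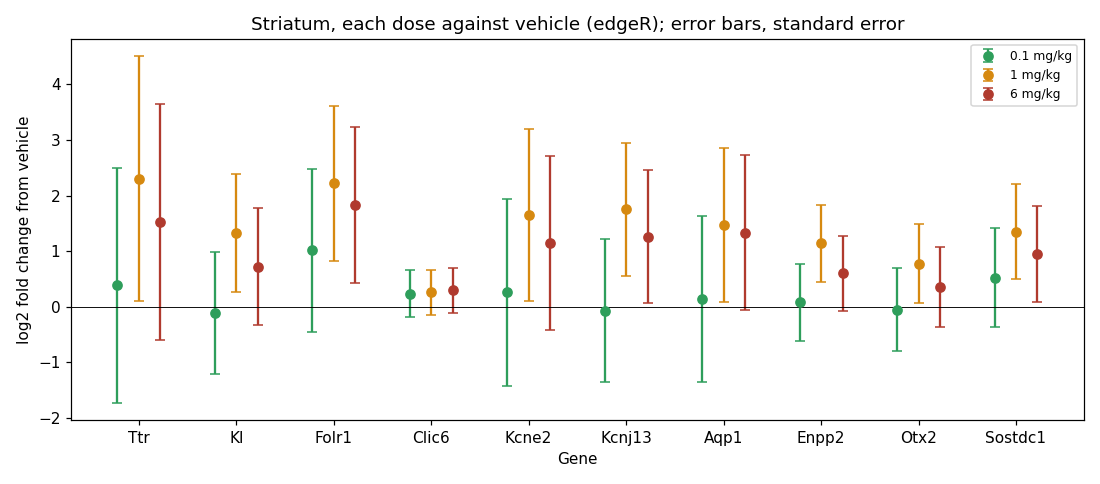
Log2 fold change from vehicle of each of the 10 genes in the striatum at 0.1, 1 and 6 mg/kg, from the edgeR fit; error bars are standard errors. The Ttr error bars are the longest, with a standard error of 2.12 at 6 mg/kg, and no gene passed at any dose.

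The comparison of striatum with PFC sets the levels of the 10 genes in one brain region beside those in another. In the joint fit of both tissues 6 of the 10 genes also passed the filter of each tissue on its own, and 6 of these 6 passed the edgeR test as higher in the striatum, where 28.8% of all 14513 genes did so (55.9% passed in either direction, and 60.4% at an unadjusted p of 0.05). Ttr had a log2 difference of 5.60 (SE 0.869, edgeR adjusted p 8.21e-07). Clic6 had 2.57, Sostdc1 2.45, Kl 2.27, Kcnj13 1.80 and Enpp2 0.96, with edgeR adjusted p-values from 5.33e-14 (Clic6) to 0.00112 (Kcnj13). These values take all libraries as independent. A fit with the animal number as a block, in which the Ttr difference was smaller, is given further below. Otx2 entered the joint fit through its striatum counts alone, with 0 to 4 counts in the PFC libraries and 0 in 10 of 21, so its difference had to appear and is not counted as a call. Folr1, Kcne2 and Aqp1 did not pass the joint filter and were not tested. In vehicle libraries alone 5 of the 6 genes, all but Clic6, no longer passed: Ttr had 5.71 (edgeR adjusted p 0.0691) and Sostdc1 1.55 (0.0623), Kl 1.56 (0.124), Kcnj13 0.78 (0.443) and Enpp2 0.53 (0.300). Without the striatum libraries of animals 45, 52, 41, 28 and 4, Ttr had 2.53 (edgeR adjusted p 0.00105), Kl 0.94, Clic6 2.21, Sostdc1 1.43 and Enpp2 0.21, and Kcnj13, at 0.28 (edgeR adjusted p 0.399), no longer passed.

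For Clic6 all 21 striatum libraries lay above all 21 PFC libraries, as for 1.79% of the 15096 genes that were listed in both tables and passed the striatum filter. The lowest Clic6 level in the striatum was 15.1 CPM and the highest in the PFC 13.1 CPM. Otx2 was also above its PFC maximum, 0.353 CPM from 4 counts, in every striatum library, but its near absence from the PFC counts makes this no contrast with the other genes. For Sostdc1 19 of 21 striatum libraries exceeded the PFC maximum of 1.36 CPM, for Kl 16 exceeded 6.06 CPM and for Folr1 13 exceeded 0.785 CPM. For Aqp1 12 exceeded 0.879 CPM, for Ttr 11 exceeded 34.0 CPM, for Enpp2 10 exceeded 232 CPM, for Kcne2 8 exceeded 0.678 CPM and for Kcnj13 7 exceeded 1.97 CPM. The low striatum libraries thus did not exceed the PFC maximum of Ttr and Kcnj13 and did exceed that of Clic6.

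In the PFC co-variation of the 10 genes was weaker or not detectable at this depth. Folr1, Kcne2, Aqp1 and Otx2 had median counts of 2, 0, 3 and 1 there and did not pass the filter, so pairs that include them say little. The 45 pairs had a median r of 0.131, from -0.27 to 0.524 (Ttr with Otx2). Against the other 9 genes Ttr had an r of 0.624 (rho 0.674) and the rest had from 0.0516 (Kl) to 0.362 (Kcne2), and of 14832 other genes 2 (0.0135%) reached an r of 0.7 with their mean z-score. Ttr was the most variable of the 6 genes that passed the filter, with an SD of log2 CPM of 1.34 (rank 5 of 14838 genes), and Enpp2 the least, with 0.163 (rank 11377). Ttr in vehicle PFC was 2.23, 5.24, 4.00 and 1.59 CPM in animals 3, 4, 7 and 8, and at 0.1 mg/kg 1.61, 7.84, 18.3, 4.78 and 4.83 CPM in animals 23, 24, 25, 28 and 29. The 1 mg/kg libraries ran from 4.96 CPM through a median of 13.03 CPM to 34.0 CPM (animal 42), and at 6 mg/kg from 0.766 CPM through 9.12 CPM to 14.2 CPM. The 1 mg/kg libraries overlapped vehicle through animal 41 alone, at 4.96 CPM below vehicle animal 4.

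By edgeR 0 of the 6 tested genes passed in the PFC at any dose, as did 0% of all 14838 genes. The fitted difference of Ttr at 1 mg/kg was 2.34 on the log2 scale (SE 0.756, adjusted p 0.588 by edgeR, unadjusted 0.00599), the highest fold change of all tested genes in that comparison. Its value was 1.197 at 6 mg/kg (SE 0.772, edgeR adjusted p 0.669) and 1.23 at 0.1 mg/kg (SE 0.789, edgeR adjusted p 0.742). Enpp2 at 6 mg/kg had 0.22 (SE 0.0913, edgeR adjusted p 0.456, unadjusted 0.0214). Unadjusted, 1 of the 6 passed at 1 mg/kg (Ttr) and 1 at 6 mg/kg (Enpp2), beside 8.29% and 9.27% of all genes, and 0 at 0.1 mg/kg, beside 6.43%. DESeq2's Wald test passed 1, 0 and 27 PFC genes at 0.1, 1 and 6 mg/kg, none of them among those of the 6 that it gave an adjusted p. Without each library in turn the Ttr value lay between 1.99 and 2.66 at 1 mg/kg and between 0.92 and 1.52 at 6 mg/kg. For 0.1 mg/kg it lay between 0.56, without animal 25, and 1.55. The unadjusted counts over all genes moved as well: 1230 genes at 1 mg/kg became 720 without vehicle animal 4 and 640 without animal 45. The 954 genes at 0.1 mg/kg became 1798 without animal 23, 581 without vehicle animal 4 and 560 without animal 28.

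No relation between striatum and PFC libraries of the same number was detected. For Ttr the correlation of log2 CPM over the 21 numbers was r 0.0967 (permutation p 0.675, adjusted over the 6 genes 0.953) and rho 0.0727 (permutation p 0.754, adjusted 0.957). Without the 2 numbers farthest from the striatum median r was 0.0232. The r of Kl, Clic6, Kcnj13, Enpp2 and Sostdc1 lay between -0.09 (Enpp2) and 0.0824 (Clic6), each with an adjusted permutation p of 0.953. Enpp2 had -0.29 without the 2 farthest numbers (adjusted permutation p 0.958) and -0.30 on deviations from dose group means (adjusted permutation p 0.801). Animal 45 had 28.9 CPM of Ttr in the PFC, second to animal 42, and animal 52 had 2.57 CPM. With 21 numbers these values do not show that the tissues were unrelated.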

How the data were processed

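RNA from tissue punches was isolated with TRIzol and spin columns, per the labels' protocols, which name both poly(A) selection and ribosomal RNA depletion without saying which was used. The authors deposited whole-number read counts per Entrez gene, 1 table per tissue. FastQC, HISAT2 and mm10 are named in the submitters' processing notes without versions. The counting tool, its gene models and its strand setting are not given in the sources used here. Each listed gene had at least 10 counts over its table. Columns were matched to samples by title, and groups came from the treatment label.

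The 10 genes, the marker lists and the rules for naming other genes were chosen with earlier results of these data known. Symbols and coordinates came from RefSeq GRCm38.p6, which named 99.95% of striatum and 99.97% of PFC identifiers. The count model was edgeR 4.0.16 (R 4.3.3): filterByExpr, trimmed mean of M values (TMM) scaling and a robust quasi-likelihood fit over all dose groups of a tissue, with Benjamini-Hochberg adjustment over all genes. The striatum and PFC were joined in 1 fit with dose as a term. A prior count of 2 was added for log2 CPM. The z-score of a gene is its log2 CPM in SDs from its mean over libraries. Correlations used 100000 permutations where a p is given, two-sided (scipy 1.17.1). Besides the 10 genes, the 10 tested genes with the highest and the 3 with the lowest r, and up to 5 genes per marker list (12 for other choroid plexus genes) by mean CPM, could be named, except items that are not reported here. On simulated counts with 200 genes changed by 1.5 on the log2 scale, 92% were recovered among 15118 genes for striatum 6 mg/kg against vehicle (8% of calls false), and 100% among 14513 for striatum against PFC (4.31% false). The changed genes were drawn at random and their counts independently of one another. These shares thus do not give the power for the 10 genes, which varied together and more than the median gene. Between libraries of a group, chi-square per degree of freedom was at least 2.94 in the striatum and 4.84 in the PFC, so no pair agreed within sampling noise. Alternatives included DESeq2 1.42.0, size factors by median ratio, all genes unfiltered, fewer groups, the animal number as a block, a prior count of 0.5, deviations from dose group means and leaving out libraries. The mean z-score of the 10 genes as a covariate, fits and correlations without the libraries highest in Ttr, and all alternatives for the marker lists were chosen after seeing the data.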

Additional observations from a re-analysis of the deposited data

Results flagged for a closer look

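Within dose groups of 4 to 6 libraries, 5 of 64 sets held a library far from the rest by Dixon's criterion, where chance gives about 3.2. In the striatum at 0.1 mg/kg animal 28 was far above the other 4 libraries for Kl, at a log2 CPM of 5.14 (35.0 CPM), and for Enpp2, at 9.15 (568 CPM). In vehicle striatum animal 4 was far above the other 3 for Sostdc1, at a log2 CPM of 2.74 (6.45 CPM). Both animals are among the 5 with the most Ttr. In the PFC at 1 mg/kg animal 42 was far below the others for Clic6, at 1.44 (2.50 CPM), although it had the highest Ttr level there, and animal 48 was far below for Sostdc1, at -0.634 (0.441 CPM).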

How the results depend on the processing

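No dose comparison passed a gene with edgeR under median-ratio size factors, without the filter, on the dose group and vehicle alone, or, in the striatum, with the mean z-score of the 10 genes as a covariate. With that covariate 2688, 1016 and 428 striatum genes had an unadjusted p under 0.05 at 6, 1 and 0.1 mg/kg, against 2377, 1113 and 383 without it. DESeq2 passed 26, 6 and 1 striatum genes at those doses and 27, 0 and 1 PFC genes, none of them among those of the 10 with an adjusted p. In the striatum at 6 mg/kg Folr1, Kcne2, Kcnj13, Aqp1, Otx2 and Sostdc1 lacked one. Leaving out 1 library gave 0 genes in the striatum and 0 to 1 in the PFC at 6 mg/kg, the 1 without animal 54. Left out in turn, single libraries moved the log2 fold changes across zero. At 6 mg/kg the ranges were -0.32 to 3.69 for Ttr, -0.40 to 1.66 for Kl, -1.09 to 3.10 for Kcne2 and -0.024 to 1.03 for Enpp2. At 1 mg/kg they were -0.23 to 0.51 for Clic6, -0.078 to 3.60 for Kcne2, -0.39 to 2.98 for Aqp1 and -0.13 to 1.15 for Otx2. At 0.1 mg/kg they were -2.89 to 2.57 for Ttr, -0.97 to 0.84 for Kl, -0.45 to 2.24 for Folr1, -2.23 to 2.22 for Kcne2, -1.23 to 0.80 for Kcnj13, -1.40 to 1.67 for Aqp1, -0.39 to 0.52 for Enpp2, -0.48 to 0.33 for Otx2 and -0.32 to 1.42 for Sostdc1. In each of these ranges the upper end left out vehicle animal 4, and the lower end left out animal 52, 45 or 28, in the order of the doses given. For striatum against PFC, 8112 genes passed, 3229 with vehicle libraries alone and 7670 without the 5 striatum libraries highest in Ttr. Deviations of striatum and PFC libraries with the same number had a mean correlation of 0.112 over 21 numbers, beside -0.023 for other numbers, and 10 of 21 correlated best with their own number. That is a hint of pairing from the data and not from the labels, although libraries of the same number have the same dose in every tissue. Of the 21 same-number correlations 12 exceeded 0.1, a level that does not decide the question. Pairing was thus neither shown nor excluded, and the main fit did not use it. In the fit with the replicate block 8212 genes passed, and Ttr had 3.28 (edgeR adjusted p 0.00506). The block changed the call of none of the 6 genes. The median r of the 45 pairs, 0.892, was 0.823 without the 2 farthest libraries and 0.631 without the 5 highest in Ttr. Without those 5 the median r of the marker lists was 0.421 for other choroid plexus, 0.477 for ependymal, 0.406 for oligodendrocyte and 0.067 for striatal projection neuron genes, the last at -0.24 with all libraries. Oligodendrocyte genes had 0.491 without the 2 farthest. Without the 2 farthest numbers the striatum-to-PFC r was -0.0126 for Clic6 and 0.189 for Sostdc1, both of the other sign. The causes of these shifts were not tested. Low counts limit Folr1, Kcne2, Kcnj13 and Aqp1: between 8 and 14 of 21 striatum libraries held fewer than 10 counts of them.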

Other observations

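In the liver 7 of the 10 genes were listed, and Kcne2, Otx2 and Sostdc1 were not analysed there. Ttr, which hepatocytes make for the blood plasma, ran from 6588 CPM through a median of 11357 CPM to 18556 CPM over the 20 liver libraries, above all striatum libraries. Aqp1 ran from 23.5 to 103 CPM and Enpp2 from 11.5 to 37.2 CPM. Kl, Folr1, Clic6 and Kcnj13 each had a median at or under 0.049 CPM.

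Kcne2 and Clic6 both lie on chromosome 16, 200.013 kb apart in GRCm38.p6, with 11 annotated genes between them. The 2 of these that passed the striatum filter were Smim11, with an r of 0.28 with the mean z-score of the 10 genes, and Rcan1, with -0.53.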
